A study of Homo sapiens with 8 samples.

Results

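The genes described are CRYAB and 7 further small heat shock protein genes, CRYAA, HSPB1, HSPB2, HSPB3, HSPB6, HSPB7 and HSPB8, 8 of 32511 genes named on the arrays. They were found by matching the RefSeq accession of each probe to a gene symbol, which gave 10 probes. The family was chosen by the log2 signal of CRYAB, which was higher on the arrays labelled siGATA2 than on siControl arrays, so the difference between the groups is given as a description with its standard error for the 7 genes bright enough to fit, and supports nothing. LNCaP cells, a line grown from a lymph node metastasis of a human prostate cancer, were kept in RPMI-1640 with fetal bovine serum and transfected with 30 nM siRNA, and total RNA was labelled with Cy3 and hybridised 72 h later to 8 one-colour Agilent arrays. The 4 siGATA2 arrays held RNA of cells given siRNA against GATA2, a zinc finger transcription factor. The 4 siControl arrays held RNA of cells given a scrambled siRNA. Replicates were numbered 1 to 4 in each group, and the labels do not say whether they came from separate cultures. Both groups received siRNA and transfection reagent, and cells without transfection were not analysed here. The comparison asked which genes respond when GATA2 is silenced.

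Small heat shock proteins are small chaperones that share an alpha-crystallin domain and assemble into oligomers. They bind partly unfolded proteins without using ATP and hold them in a state that HSP70 and its partners can refold or pass on for degradation. CRYAA and CRYAB are the alpha-crystallins of the eye lens, where CRYAA largely remains, while CRYAB and most of the HSPB proteins are best known from heart and skeletal muscle. HSPB1 and HSPB8 are made in many tissues. Several of the genes respond to heat shock factors, which bind repeats of the word GAA and its complement, and GATA factors bind words built around GATA.

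The genes lie on 7 chromosomes, 1, 5, 7, 11, 12, 19 and 21, with CRYAB and HSPB2 side by side on chromosome 11. Promoter windows of RefSeq on GRCh38.p14 were at hand for 6 of the 8 genes, with no entry for CRYAB and HSPB2. The 250 bases before the start of HSPB8, HSPB1 and HSPB6 are shown because they hold the heat shock words searched for and belong to genes whose differences on the arrays ranged from 12.8-fold to an overlap of the groups. They cover chr12:119178681-119178930 on the plus strand, chr7:76302423-76302672 on the plus strand and chr19:35757030-35757279 on the minus strand, each written 5′ to 3′ on the strand of its gene, with matches to GAANNTTC or TTCNNGAA in capitals.
HSPB8: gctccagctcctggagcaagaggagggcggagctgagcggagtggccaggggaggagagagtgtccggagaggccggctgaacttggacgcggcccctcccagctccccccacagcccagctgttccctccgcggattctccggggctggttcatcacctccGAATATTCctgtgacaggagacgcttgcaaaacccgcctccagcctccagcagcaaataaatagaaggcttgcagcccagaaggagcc
HSPB1: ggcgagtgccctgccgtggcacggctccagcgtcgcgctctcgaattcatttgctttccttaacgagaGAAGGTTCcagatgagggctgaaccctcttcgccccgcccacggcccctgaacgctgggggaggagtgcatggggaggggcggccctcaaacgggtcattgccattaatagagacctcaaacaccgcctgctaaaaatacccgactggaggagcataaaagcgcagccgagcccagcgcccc
HSPB6: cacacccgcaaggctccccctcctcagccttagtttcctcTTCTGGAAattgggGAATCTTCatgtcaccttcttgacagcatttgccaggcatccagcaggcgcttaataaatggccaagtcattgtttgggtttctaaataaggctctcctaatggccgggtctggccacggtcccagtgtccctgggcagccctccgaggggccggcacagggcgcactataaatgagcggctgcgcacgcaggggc
In HSPB8 the word GAATATTC lay 88 to 81 bases before the start, and in HSPB1 GAAGGTTC lay 182 to 175 bases before it. HSPB6 held TTCTGGAA and GAATCTTC, at 210 to 203 and 196 to 189 bases before the start. The window of HSPB3 held TTCTTGAA, and those of HSPB7 and CRYAA held neither word. Of 35116 windows of the same length, 11.6% held one word or the other. Each pattern searched, GAANNTTC and TTCNNGAA with N for any base, reads the same on both strands, though a match to it need not. The word GATA with A or T before it and A or G after it, searched on both strands, occurred in 22.3% of all windows and, among these genes, in a window of CRYAA alone, 8 to 3 bases before its start. A match is a run of letters and not a measured binding site.

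Values below are processed signals on the log2 scale after quantile normalization, in which 1 unit is a doubling, and levels are compared only between arrays for 1 probe and never between genes. A probe was called well above background where Feature Extraction, the scanner software, marked a share of at least 0.5 of its spots so. Spots marked as outliers were left out. Between 24241 and 36968 of 42405 probes met this on an array, with the lowest numbers on siControl arrays 3 and 1, and no spot was saturated. The E1A spike-ins, synthetic RNAs meant to be equal in each sample, had a mean log2 signal of 11.13 on siControl array 1 and of 13.45 to 13.83 on the other arrays. Whether each sample received an equal amount was not tested. Scaling to them moved the median difference of all genes from 0.09 to -0.43, but to -0.0046 without siControl array 1, so the small differences of the family are given under both scalings. All arrays lay on 1 slide, with siGATA2 arrays 1, 2 and 3 and siControl array 4 in its row 1 and the other arrays in row 2.

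The RNA of GATA2 itself, read by 1 probe, was not detectably lower on the arrays labelled siGATA2. Its log2 signals were 12.61, 12.54, 11.57 and 11.40 on siGATA2 arrays 1 to 4 and 11.74, 11.28, 11.10 and 11.29 on siControl arrays 1 to 4, well above background on all 8. The difference was 0.68 (standard error 0.312, adjusted p = 0.154 from limma), with an adjusted p between 0.0321 and 0.986 over the alternative settings, called higher with array weights at 0.79 and at 0.03 with spike-in scaling. Each direction given for siGATA2 therefore rests on the labels of the arrays.

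CRYAB, HSPB2 and HSPB8 were much higher on the arrays labelled siGATA2, by 7.99-fold, 7.28-fold and 12.8-fold. HSPB1 was higher by 1.44-fold after quantile normalization with a sign that turned with spike-in scaling, HSPB6, CRYAA and HSPB3 had groups that overlapped, and HSPB7 was at background level on all 8 arrays. The first 3 of these genes, out of 7 tested, passed an adjusted p of 0.05 with at least 2-fold, a rule that 4.52% of the 28850 genes tested passed in the higher direction and 7.13% in the lower, where 0 of the 7 passed. In 4 of the 7, the 3 named and HSPB1, every siGATA2 array lay above every siControl array, as in 16.2% of all genes. The contrast that chose the genes gave these counts, and nothing is read from them.

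**Figure D1:**
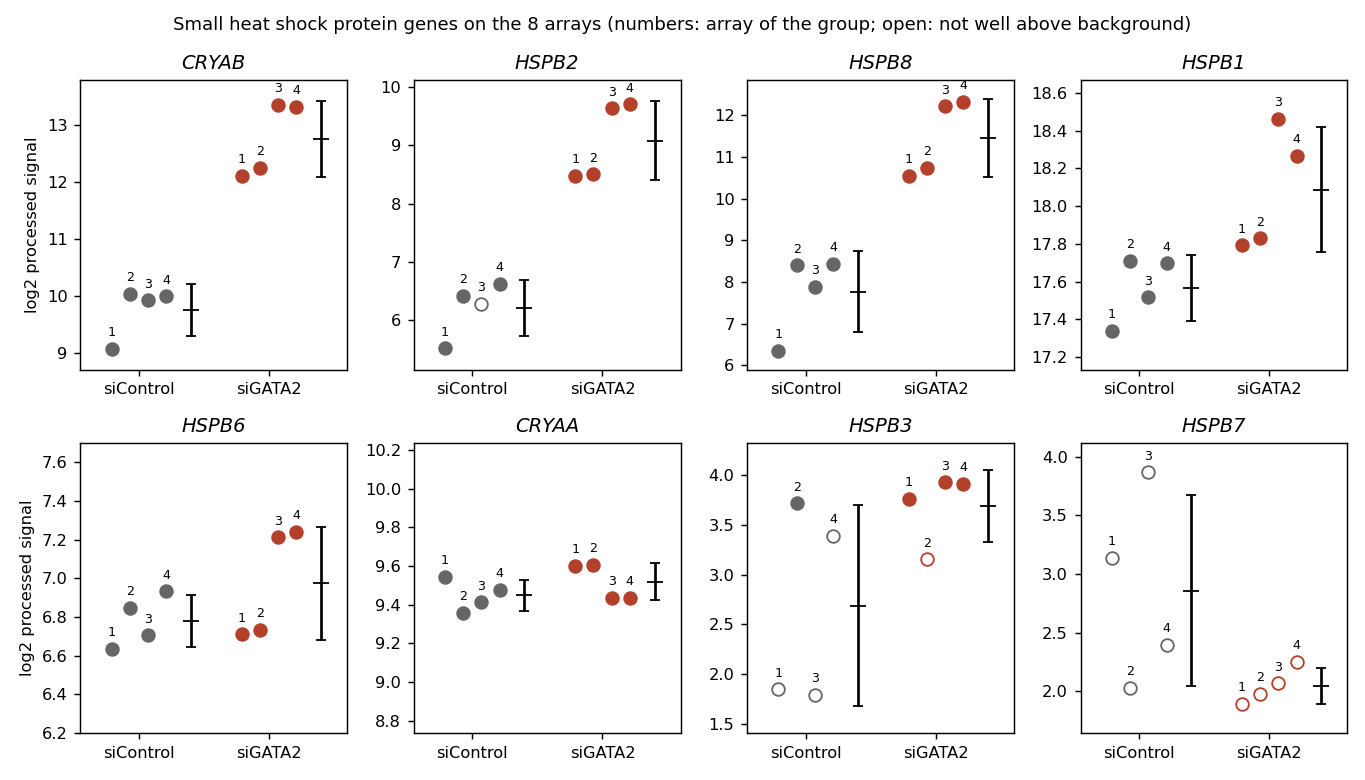
Log2 processed signal of each small heat shock protein gene after quantile normalization, with a point per array numbered by replicate, and with bars at the mean and SD of the 4 arrays of a group. Vertical ranges differ between panels, open points were not well above background, and the siGATA2 points of CRYAB, HSPB2 and HSPB8 lie over all their siControl points with arrays 3 and 4 over arrays 1 and 2, while the order of HSPB1 shown here turns in its mean difference with spike-in scaling.

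CRYAB, the lens and muscle crystallin that also binds desmin filaments, was measured by 1 probe (NM_001885). On siGATA2 arrays 1 to 4 it was 12.12, 12.25, 13.36 and 13.32, a mean of 12.76 ± 0.670 (SD, n = 4). On siControl arrays 1 to 4 it was 9.08, 10.04, 9.93 and 10.00, a mean of 9.76 ± 0.458 (SD, n = 4). The lowest siGATA2 array exceeded the highest siControl array by 2.07, while the 2 spots of the probe on an array differed by at most 0.159. Array 1 was the lowest in both groups, and siGATA2 arrays 3 and 4 stood over 1 unit above arrays 1 and 2. The difference was 3.00 (standard error 0.364). A difference at least as high was seen in 62 genes, 0.215% of those tested. Within the slide rows it was 2.58 in row 1, where siControl has a single array, and 3.64 in row 2, where siGATA2 has a single array. It was 2.39 with spike-in scaling and 2.58 with spike-in scaling without siControl array 1.

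HSPB2 is a muscle protein known to bind the myotonic dystrophy protein kinase and to form complexes with HSPB3. Its probe (NM_001541) read 8.48, 8.50, 9.63 and 9.70 on siGATA2 arrays 1 to 4 and 5.52, 6.42, 6.28 and 6.62 on siControl arrays 1 to 4. It was well above background on every array but siControl array 3. On siControl array 1 only 1 of its 2 spots was marked well above background. The groups were apart, with means of 9.08 ± 0.681 and 6.21 ± 0.481 (SD, n = 4 each), and the arrays within each group kept nearly the order seen for CRYAB. The difference was 2.86 (standard error 0.373), reached by 75 genes or 0.26% of those tested, against 2.24 in slide row 1 and 3.63 in row 2. With normexp background correction, whose offset shrinks the folds of dim probes, it was 2.09, and with spike-in scaling 2.46.

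HSPB8, which works with BAG3 to hand damaged filament proteins to autophagy, had the largest difference of the 7 genes. Its probe (NM_014365) read 10.54, 10.73, 12.21 and 12.32 on siGATA2 arrays 1 to 4. On siControl arrays 1 to 4 it read 6.35, 8.40, 7.88 and 8.44, well above background on all of them. Again siGATA2 arrays 3 and 4 were the high ones and siControl array 1 the low one, with a spread inside each group wider than for CRYAB, at means of 11.45 ± 0.945 and 7.77 ± 0.978 (SD, n = 4 each). The difference was 3.68 (standard error 0.600), 2.72 and 4.78 in slide rows 1 and 2, and 3.15 with spike-in scaling. Only 23 genes, 0.0797% of those tested, had a difference at least as high. Without siControl array 1 it was 3.21, the lowest value on leaving out any 1 array.

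HSPB1, also known as HSP27, is the widely made family member that stress kinases phosphorylate and that binds actin. Its brightest probe (NM_001540) read 17.79, 17.83, 18.46 and 18.27 on siGATA2 arrays 1 to 4 and 17.34, 17.71, 17.52 and 17.70 on siControl arrays 1 to 4. The groups were apart by 0.0835. The difference was 0.52 (standard error 0.183) after quantile normalization, 0.20 with 75th percentile scaling, -0.40 with spike-in scaling and -0.04 with spike-in scaling without siControl array 1. A second probe for the same accession did not follow it. It read 11.38, 11.48, 11.92 and 11.88 on siGATA2 arrays and 11.16, 11.86, 11.96 and 11.91 on siControl arrays 1 to 4, with overlapping groups and a difference of -0.05. Both probes were well above background on all 8 arrays, and with their mean taken for the gene the difference was 0.23.

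HSPB6, or HSP20, is a target of cyclic nucleotide-dependent kinases in smooth muscle. It read 6.71, 6.73, 7.21 and 7.24 on siGATA2 arrays and 6.63, 6.85, 6.70 and 6.93 on siControl arrays 1 to 4 (NM_144617). The probe was called well above background on every array, though on siControl array 3 only 1 of its 2 spots was marked so. The groups overlapped, with siGATA2 arrays 3 and 4 above all siControl arrays and arrays 1 and 2 among them. The difference was 0.19 (standard error 0.163), and it turned to -0.19 with spike-in scaling but was 0.26 with that scaling without siControl array 1.

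CRYAA, the lens partner of CRYAB, had values that hardly moved. The probe that represents it (NM_000394) read 9.60, 9.60, 9.44 and 9.44 on siGATA2 arrays and 9.54, 9.36, 9.41 and 9.48 on siControl arrays 1 to 4. Here siGATA2 arrays 1 and 2 were the higher ones, the reverse of CRYAB. The difference was 0.07 (standard error 0.0994), or -0.48 with spike-in scaling and -0.03 with that scaling without siControl array 1. Its second probe did not rise well above background on any of the 8 arrays.

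HSPB3, the muscle partner of HSPB2, was close to background, being well above it on 3 of 4 siGATA2 and 1 of 4 siControl arrays. It read 3.76, 3.15, 3.93 and 3.91 on siGATA2 arrays and 1.85, 3.72, 1.79 and 3.39 on siControl arrays 1 to 4 (NM_006308). The low siControl arrays 1 and 3 were the arrays with the fewest probes well above background. The difference of 1.00 (standard error 0.476) was 0.14 without those arrays, 0.13 after normexp correction of the background, -0.27 with spike-in scaling and 0.07 with that scaling without siControl array 1. HSPB7, a heart muscle member of the family, had 10 spots on each array (NM_014424), of which 7 to 10 were used, the others being marked as outliers, and 0 of those used were well above background. It fell under the mean of 3 required for the test, so no fold is given.

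**Figure D2:**
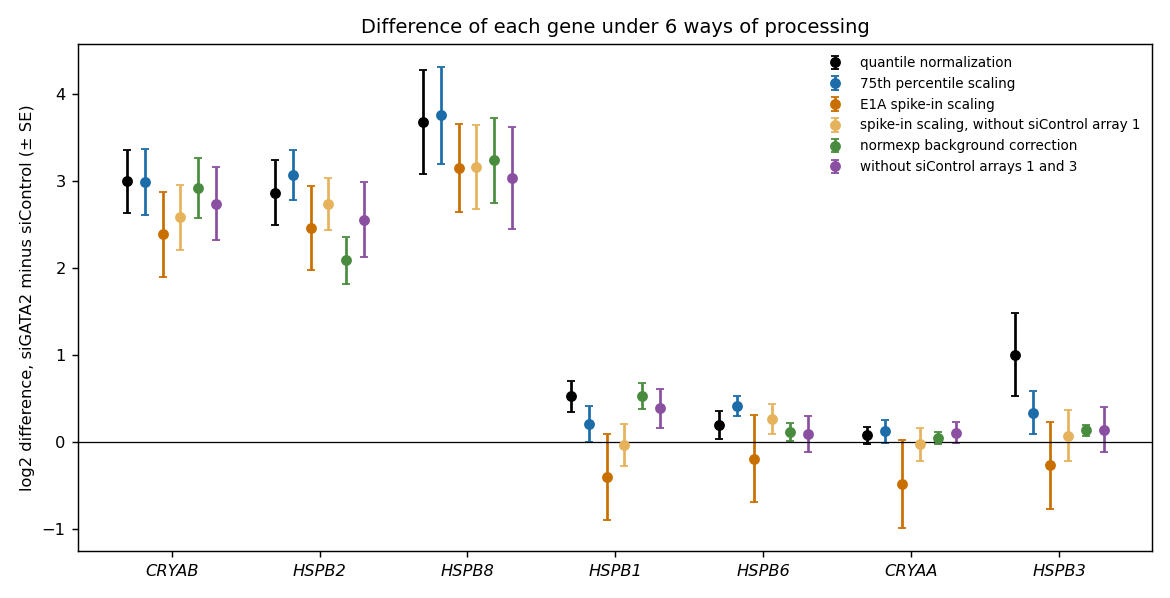
Difference in log2 signal, siGATA2 minus siControl, with its standard error for the 7 small heat shock protein genes tested, under 6 ways of processing the arrays. CRYAB, HSPB2 and HSPB8 stay between 2.09 and 3.76, while HSPB1, HSPB6, CRYAA and HSPB3 lie on both sides of 0, below it with E1A spike-in scaling over all arrays.

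The arrays of a group ranked alike for several of the genes, and GATA2 ranked the other way. On siGATA2 arrays 1 and 2, CRYAB, HSPB2, HSPB8, HSPB1 and HSPB6 were lower and GATA2 was higher than on arrays 3 and 4. On siControl array 1 the same 5 genes were the lowest of their group and GATA2 was the highest. Such orders are common on these arrays. Of 18419 genes well above background on all of them, 53.0% had siGATA2 arrays 1 and 2 under arrays 3 and 4, 34.0% had them over, and 46.2% had siControl array 1 as the lowest of its group. A cause of the order was not tested. Standard errors and p-values in this report treat the 4 arrays of a group as independent, and whether they are was not tested.

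Among 13252 genes with a symbol and a probe well above background on all 8 arrays, those whose values followed CRYAB most closely, by Pearson correlation over the 8 arrays, were UPB1, FDPS, MTCH1, C11orf65 and FOXO1. Their correlations were 0.9987, 0.9983, 0.9981, 0.998 and 0.9976, and their differences between the groups were 1.45, 0.65, 0.51, 1.66 and 1.26, all smaller than that of CRYAB. For HSPB8 the correlation with CRYAB was 0.9909, for HSPB1 0.911, for HSPB6 0.6829 and for CRYAA 0.134. With the group means taken out they were 0.9718, 0.9505, 0.9286 and -0.9223. HSPB2 was not among the genes ranked because of its dim spot pair on siControl array 3. The points share the 2 groups and the arrays, so that any gene that separates the groups ranks high, and the correlations are a description.

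CRYAB and HSPB2 are neighbours that are transcribed away from each other, and in the RefSeq table HSPB2 lies within the span of the CRYAB gene model. The 5 tested protein-coding genes on each side, chosen after the values of CRYAB were known and given without a test, did not share the size of their difference. In the order of the chromosome SIK2 was 0.28, PPP2R1B 0.48, ALG9 0.19, FDXACB1 -0.56 and CFAP68 0.08 before the pair. After it came C11orf52 at 0.86, DIXDC1 at -0.85, DLAT at -0.01, PIH1D2 at 0.15 and NKAPD1 at -1.23. Of these 10 genes, only NKAPD1 differed by at least 2-fold, and it was lower, against 16.7% of all genes in either direction. With spike-in scaling C11orf52 alone among the 10 stayed above 0, at 0.24. That scaling put the median difference of all genes at -0.43, and at -0.0046 without siControl array 1.

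**Figure D3:**
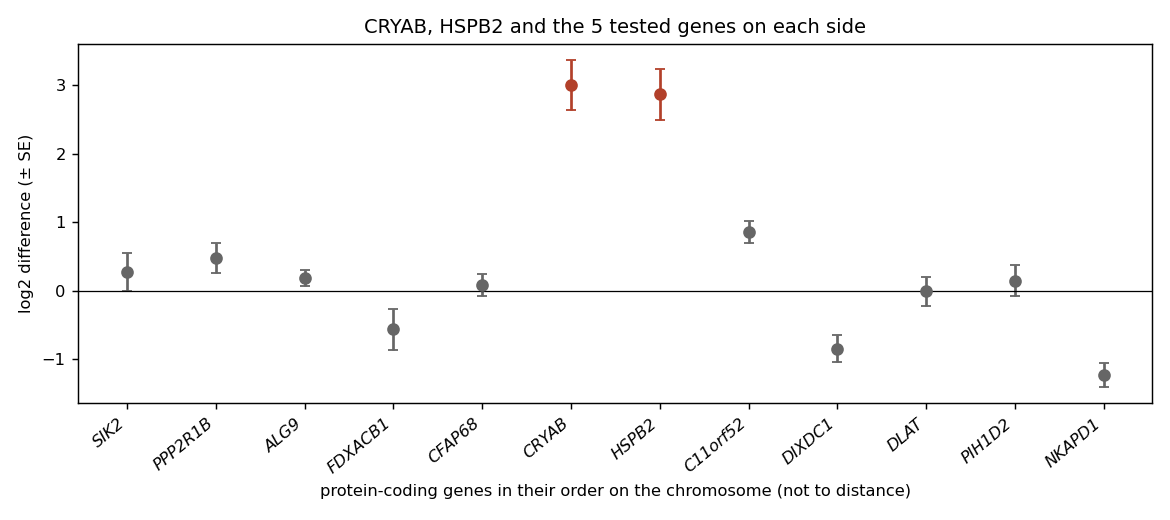
Difference in log2 signal after quantile normalization, with its standard error, of CRYAB, HSPB2 and the 5 tested protein-coding genes on each side, in chromosome order and not to distance. CRYAB and HSPB2 lie near 3 while the 10 neighbours lie between -1.23 and 0.86. With spike-in scaling, where the median of all genes is -0.43, all neighbours but C11orf52 lie below 0.

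The rest of the chaperone machinery was covered by 7 lists with 102 genes, of which 98 were tested. At an adjusted p under 0.05 from limma 16 were higher and 22 lower on the arrays labelled siGATA2, and 60 were not called, while 12.3% of all genes were called higher and 14.2% lower. The median difference over the lists was -0.15 against 0.09 for all genes. With spike-in scaling 0 were called higher and 6 were called lower. At an unadjusted p under 0.05 from limma, that scaling gave 1 higher and 34 lower. Without siControl array 1 that scaling called 7 higher and 34 lower. Of the listed genes that the naming rule picked, BAG2, HYOU1, DNAJC12 and FKBP5 stayed called with spike-in scaling, and HSP90B1 alone changed sign. Counts at an unadjusted p or by the methods' t-test, for lists and markers, are given without the share of all genes. Nothing is read from those counts.

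The HSP70 family and its exchange factors take over clients from small heat shock proteins. Of 21 tested, 2 were higher, 5 lower and 14 not called, with a median of -0.27. HSPA5, the chaperone of the endoplasmic reticulum also called BiP, was higher by 1.35 (standard error 0.250, adjusted p = 0.00527), and HSPA1L by 0.69 (adjusted p = 0.0356). BAG2, a nucleotide exchange factor of HSP70, was lower at -1.86 (standard error 0.111, adjusted p = 2.7e-05), and HYOU1, an exchange factor of the endoplasmic reticulum, at -1.18 (adjusted p = 0.00206). BAG3, named here as the partner of HSPB8 and outside the naming rule, was not called, at -0.27 (adjusted p = 0.357). The heat-inducible genes HSPA1B, HSPA6 and DNAJB1, also outside the rule, had differences of -0.14, -0.02 and -0.29 and were not called either. They were picked by hand and do not stand for all heat shock genes. HSPH1, in the HSP70 list and outside the rule too, was called lower at -0.63 (adjusted p = 0.00167 from limma). A heat shock response was not tested.

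J-domain proteins bring clients to HSP70 and set off its ATPase. Of 23 tested, 5 were higher, 4 lower and 14 not called, with a median of 0.10. DNAJB4 was higher by 2.00 (standard error 0.281, adjusted p = 0.00134) and DNAJB2, known from neurons, by 1.33 (standard error 0.106, adjusted p = 8.9e-05). DNAJC12 was lower at -1.55 (adjusted p = 0.0162) and DNAJC9, a histone co-chaperone, at -0.86 (adjusted p = 0.000251).

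In the list of HSP90 and its co-chaperones, 1 of 14 was higher, 7 were lower and 6 were not called, with a median of -0.47. FKBP5, a co-chaperone of steroid receptors and a known androgen-induced gene, was lower at -1.52 (standard error 0.350, adjusted p = 0.0144), and PPID, another immunophilin of the same complexes, at -0.88 (adjusted p = 0.00236). HSP90B1, the HSP90 of the endoplasmic reticulum, was the gene called higher, by 0.69 (adjusted p = 0.0322), but its groups overlapped, it was 0.43 (adjusted p = 0.126) with 75th percentile scaling, and with spike-in scaling it was -0.17 (adjusted p = 0.912). The chaperonins, ring-shaped folding machines, had 0 of 10 genes higher, 3 lower and 7 not called, with a median of -0.30. At an unadjusted p under 0.05, 0 were higher and 4 lower, and by the methods' t-test 0 and 3. CCT6A and CCT3, subunits of the cytosolic ring, were lower at -0.62 (adjusted p = 0.00526) and -0.54 (adjusted p = 0.00418).

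Of the 5 heat shock factors and their inhibitors, 0 were higher and 1 was lower, with a median of 0.13. At an unadjusted p under 0.05, and also by the methods' t-test, 0 were higher and 2 lower. The gene called lower by limma was HSF1, the factor that switches on heat shock genes. It was at 15.01 ± 0.0477 on siGATA2 arrays against 15.53 ± 0.0411 on siControl arrays (SD, n = 4 each). The difference was -0.52 (standard error 0.0870, adjusted p = 0.00321 from limma). Of 11 kinases that act on small heat shock proteins, 4 were higher, 2 lower and 5 not called, with a median of -0.01. MAPK11 and MAPK12, members of the p38 family, were higher by 1.43 (adjusted p = 0.00939) and 0.75 (adjusted p = 0.0345). PRKD3, a protein kinase D, was lower at -1.06 (adjusted p = 0.000306) and MAPKAPK3, which phosphorylates HSPB1 directly, at -0.48 (adjusted p = 0.0226).

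Of 14 filament clients and BAG3 autophagy partners, 4 were higher and 10 not called, with 0 lower. At an unadjusted p under 0.05, 4 were higher and 0 lower, and by the methods' t-test 5 and 0. The shares of all genes at these thresholds are not given, so the balance of the list is not read as a result. The median was 0.19. SYNM, an intermediate filament protein that joins desmin, was higher by 1.00 (standard error 0.122, adjusted p = 0.000671). SQSTM1, the autophagy receptor p62 and named outside the rule, was higher by 0.99 (adjusted p = 0.00354). Desmin itself, DES, was not called, at 0.09 (adjusted p = 0.583).

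**Figure D4:**
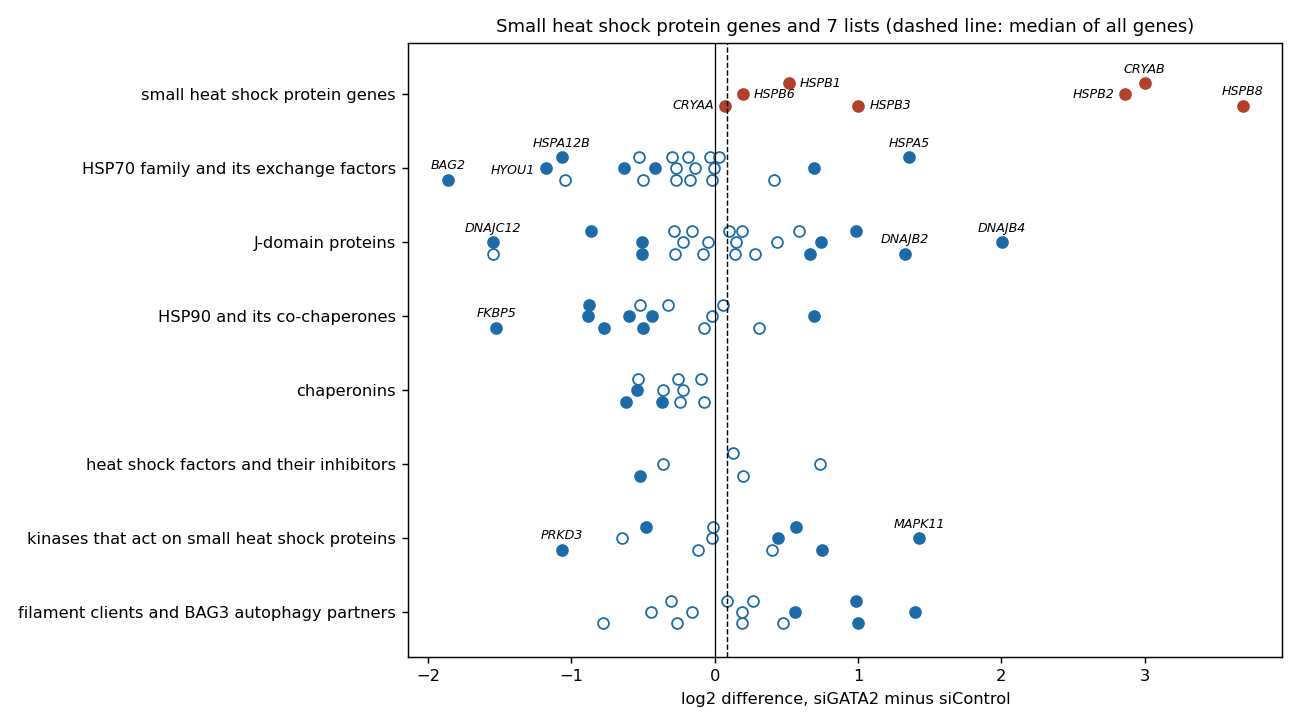
Difference in log2 signal after quantile normalization of the small heat shock protein genes (red, filled whether called or not) and of 98 genes in 7 lists (blue, filled at an adjusted p under 0.05 from limma, with most called genes past 1 in size named). CRYAB, HSPB2 and HSPB8 lie to the right of every listed gene, the highest of which is DNAJB4 at 2.00. With spike-in scaling 0 listed genes were called higher and 6 lower, and HSPB1, HSPB6, CRYAA, HSPB3 and HSP90B1 lie below 0.

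Several of these calls did not hold in other settings. Without siControl arrays 1 and 3, HSPA1L, MAPK11, MAPK12 and MAPKAPK3 were no longer called. With the slide row as a block, HSPA1L, DNAJC12, HSP90B1, FKBP5, MAPK12 and MAPKAPK3 were not called.

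Since most of these genes are known from muscle or lens, markers of other cell types were read on the same arrays. The 9 prostate luminal markers were well above background on all 8 arrays, with a mean log2 signal of 14.3 to 14.9 on siGATA2 arrays and 15.1 to 15.2 on siControl arrays. By limma, 5 of them, KLK2 and KLK3 included, were called lower and KRT8 higher after quantile normalization. By the methods' t-test 3 were lower and 2 higher. The mean of the 8 tested of 9 markers of smooth and striated muscle was 7.16 to 7.27 on siGATA2 arrays and 7.10 to 7.56 on siControl arrays. Of these, 1 (MYOG, 0.48) was called higher and 1 (SMTN, -0.67) lower, and CKM was too dim to test. At an unadjusted p under 0.05, 1 was higher and 3 were lower. Those not called ranged from ACTG2 at -1.53 (adjusted p = 0.0840) to MYH11 at 0.69 (adjusted p = 0.184), which was well above background on 3 of 4 siGATA2 and 0 of 4 siControl arrays. Of 6 lens markers, 2 were well above background on all 8 arrays, with a mean of 6.20 to 6.30 on siGATA2 and 5.65 to 6.26 on siControl arrays, and 1, BFSP1, was called higher at 1.95 (adjusted p = 0.0202), although only 2 of 4 siControl arrays had its probe well above background. Of the 2 tested of 3 basal markers, 0 were well above background on all arrays and 0 were called at an unadjusted p under 0.05 or by the methods' t-test. Among endothelial and leukocyte markers, 3 each, 1 endothelial gene was lower, and PTPRC was higher by 0.87 (adjusted p = 0.00138). The samples were cultures of a single cell line, LNCaP, and not mixed tissue. The markers are therefore given as signals of these genes and not as shares of cell types. A cause of their differences was not tested.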

How the data were processed

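Labels gave the groups and replicate numbers. Deposited files hold spot intensity from Agilent Feature Extraction 11.0.1.1, and the background-corrected linear processed signal was read together with the outlier and background flags. A deposited matrix of log2 values served as an alternative. The deposited log2 values correlated best with their own array (r of at least 0.985 across probes) and had a median near 7.47 on every array. Quantile normalization in GeneSpring is named in the methods, as is another array design than the file headers, which name build hg19.

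Log2 processed signals were averaged over the spots of a probe not marked as outliers and quantile-normalized over 8 arrays with limma 3.58.1 in R 4.3.3. A RefSeq table of GRCh38.p14 gave symbols to 26364 of 42405 probes and the order of genes. The 1914 probes without annotation and those with a mean under 3 were removed. The brightest probe stood for each of 28850 genes, compared with lmFit and eBayes and Benjamini-Hochberg adjustment over all of them. Thresholds were an adjusted p of 0.05 and, for the small heat shock protein genes, 2-fold, as in the methods. The test was run on simulated data in which each value was drawn independently. Effects shared by the genes of an array were not simulated, so the check does not cover them. Tables and figures were made in Python 3.11.15.

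The genes, lists and tests were chosen with earlier results of these data known. Genes named are the 8 small heat shock protein genes, GATA2, HSF1, in each list the 2 called genes with the largest rise and the 2 with the largest fall with a signal well above background throughout at least 1 group, and the 5 genes most like CRYAB. A gene that the rule names is not reported here. Alternatives were 75th percentile and E1A spike-in scaling, normexp background correction with an offset of 50 on the median signal, the deposited log2 values, 2 other filters on dim probes, the methods' t-test, array weights, blocks by replicate number and slide row, the mean over probes and leaving out arrays. Arrays have no read depth, and 4 arrays a group limit the precision. Xenografts, tumour cohorts and protein measurements of the study were not analysed here.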

Additional observations from a re-analysis of the deposited data

Results flagged for a closer look

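Of 56 groups of 4 values examined, siGATA2 and siControl groups together, 4 had a value set apart from the other arrays of the group. Chance gives about 1 in 20 for any array of a group, and the groups share the same arrays. In all 4 the array set apart was siControl array 1. CRYAB was 9.08 on the log2 scale on that array against 9.93 to 10.04 on the other siControl arrays, so that the gap took up 0.878 of the range of the group. HSPA5 was 11.75 against 10.66 to 10.73, with 0.935 of the range in the gap. HSP90B1 was 17.19 against 16.60 to 16.64, with 0.929 in the gap. PPID was 13.11 against 13.39 to 13.44, with 0.829 in the gap. No other array stood apart in these groups. Its spike-in signal, 11.13 against 13.62 to 13.69 on the other siControl arrays, was low as CRYAB and PPID were, while HSPA5 and HSP90B1 were high. Its part in these values was not tested.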

How the results depend on the processing

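The count of 3 family genes past the adjusted p and 2-fold, CRYAB, HSPB2 and HSPB8, did not change under the 21 alternatives run, and since the same contrast chose the family, nothing is read from it. The difference of CRYAB was 2.39 with E1A spike-in scaling, 2.77 to 3.21 on leaving out each array in turn, and moved by less than 1 SD between replicates otherwise. HSPB2 ranged from 2.09 to 3.07 and HSPB8 from 3.03 to 3.99. HSPB1 ranged from -0.40 to 0.62, HSPB3 from -0.27 to 1.35, HSPB6 from -0.19 to 0.41 and CRYAA from -0.48 to 0.12, each below 0 with spike-in scaling over all arrays. Of the listed genes called, 16 higher and 22 lower, there were 0 and 6 with spike-in scaling, 8 and 14 with the slide row as a block, and 7 and 34 with spike-in scaling without siControl array 1. With array weights 39 were lower, and without siControl arrays 1 and 3, 10 were higher. Leaving out each array gave 11 to 15 higher and 15 to 30 lower. The cause of these changes was not tested. Leaving out siControl arrays 1 and 3, and spike-in scaling without siControl array 1, were chosen after seeing the data. Deviations of same-numbered arrays correlated at 0.54, -0.31, 0.17 and 0.22, and whether replicate numbers pair the arrays was not tested. With the replicate number as a block the difference of CRYAB was 3.00, and MAPK12 was no longer called (adjusted p = 0.0819 from limma). That block lowered the standard error of CRYAB from 0.364 to 0.237 and of HSPB8 from 0.600 to 0.367. No fit with the slide as a block could be made with 1 slide. Signal over background limits HSPB3 and HSPB7.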
